A study of Mus musculus with 10 samples.

Results

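The genes described here make amino acids, carry them into the cell, charge them onto tRNA, or belong to the Atf4-linked response to amino acid shortage. The list held 43 genes, matched to the array by symbol with older and newer synonyms accepted. Of these, 40 had a probe set of their own (80 probe sets), and 37 were bright enough to be tested (72 probe sets), out of 12393 genes on the array and 7761 genes tested. Mthfd1l, Pycr1 and Mars had no probe set named for them here. Slc7a11, Slc7a1 and Cbs were too dim to test: the signal of Slc7a11 lay between 7.14 and 64.7, that of Slc7a1 between 36.2 and 68.0, and the brighter Cbs probe set between 14.6 and 77.7. Cth, and the probe set by which Trib3 was read, passed the brightness filter only through the arrays labelled deleted.

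The cells were mouse embryonic fibroblasts from which G9a, an enzyme that methylates a lysine of histone H3, had been deleted. The delta group carried a vector with no insert. The WT group carried wild-type G9a with a FLAG tag, and the K165A and H1093K groups carried FLAG-G9a forms named for their amino acid change, H1093K being the catalytic mutant in the labels. One more pair of arrays bore only the title deleted, and the sources used here do not give what vector those cells held, if any. Each of the 5 groups had 2 arrays, on which messenger RNA was measured as the signal intensity of a probe set, an arbitrary linear unit that does not allow one gene's level to be set against another's. The promoter of the vectors, the number of clones and the age of the embryos are not given in the sources used here. Whether the 2 arrays of a group stem from separate cultures is likewise unknown, and the p-values therefore reflect array-to-array spread that may be technical.

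When amino acids run short or unfolded protein builds up, kinases phosphorylate the translation factor eIF2, most translation slows, and the transcription factor Atf4 is made in larger amounts from an existing messenger RNA. Atf4 pairs with C/EBP proteins on a composite DNA element and raises asparagine synthetase, the serine pathway, amino acid transporters and many tRNA synthetases, together with feedback genes such as Trib3 and Chac1. Serine synthesis in turn feeds the folate cycle, which supplies carbon units for purines and thymidylate, and cystathionine enzymes pass sulfur from methionine to cysteine.

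On all 10 arrays the median signal lay between 181 and 199.6. Arrays of a group correlated at 0.983 to 0.989 on the log2 scale, over the 13576 probe sets bright enough to be tested. The check of the labels was Ehmt2, the gene of G9a. Its brighter probe set (1460692_at) had a mean ± SD (n = 2 each) of 1714 ± 50.9 on the arrays labelled deleted, 714 ± 14.5 with K165A, 648 ± 39.4 with WT, 478 ± 23.8 with H1093K and 444 ± 41.0 for delta. The highest Ehmt2 signal thus stood on the arrays labelled deleted, which goes against that label, and the log2 difference of H1093K from delta was 0.10 (95% interval -0.10 to 0.31, limma adjusted p = 0.735). The second Ehmt2 set (1426888_at) was dim, at 7.13 and 36.5 in delta, 40.9 and 106 in WT, 90.4 and 178 in K165A, 116 and 55.7 in H1093K, and 162 and 247 on the arrays labelled deleted. It gave H1093K a log2 difference of 1.48 from delta (0.35 to 2.62, adjusted p = 0.272), with both arrays above delta, and it too was highest on the arrays labelled deleted. In WT against delta (log2 1.26, adjusted p = 0.148) and on the arrays labelled deleted against WT (log2 1.38, adjusted p = 0.0626) it missed the threshold, whereas the brighter set passed. Whether these probes lie inside the deleted part of the gene is unknown here. Fibroblast markers were measured in every group: the summed signal of 11 of them ranged from 53766 to 67048 over the arrays. Single markers moved both ways under that sum. In WT and in K165A against delta, Col3a1, Pdgfra and Pdgfrb rose and Thy1, Fbln2 and S100a4 fell, 3 and 3 of 11. Among all genes, 5.85% and 5.32% rose and 7.69% and 7.74% fell. In H1093K against delta only Pdgfra was called, higher, where 0.515% of all genes rose and 0.49% fell. Pdgfra passed the brightness filter only through the arrays labelled deleted. Without it, Col3a1 and Pdgfrb still rose in WT and K165A, and no fibroblast marker was called in H1093K. On the arrays labelled deleted against delta 4 rose (Col3a1, Pdgfra, Pdgfrb and Dcn) and 3 fell (Thy1, Fbln2 and S100a4, the last from 6148 and 7178 to 1151 and 1255). The widest differences were those of Pdgfra and Dcn, which were dim on all other arrays. Both were tested only because the arrays labelled deleted are high. Without them 2 of 9 markers rose there and 3 fell, beside 17.4% and 19.1% of all genes. Pdgfra read 5.78 and 5.48 in delta against 1628 and 1743 on the arrays labelled deleted, and Dcn read 8.24 and 32.1 against 1357 and 1519. In such bulk samples, fewer cells of a type and less RNA per cell cannot be told apart.

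Cells with wild-type G9a or K165A had lower signals of asparagine synthetase, the stress gene Ddit4 and several tRNA synthetases than cells with the empty vector, and cells with H1093K gave no such call. Of the 37 genes tested, 9 fell (Asns, Ddit4, Aars, Cth, Got1, Gars, Phgdh, Nars and Tars) and 1 rose (Slc38a2) in WT against delta, by limma on log2(signal + 16) with a Benjamini-Hochberg adjusted p under 0.05 over all 13576 probe sets tested. Among all 7761 genes tested, 7.69% fell and 5.85% rose by the same rule. With brightness judged on the 8 arrays not labelled deleted, which drops Cth, 8 of 36 genes fell and 1 rose. In that run 13.4% of all genes were called in either direction. In K165A against delta, 10 of the 37 fell and none rose, against 7.74% lower and 5.32% higher among all genes. The 10 were Asns, Ddit4, Got1, Gars, Aars, Nupr1, Atf5, Tars, Nars and Phgdh. The catalytic mutant H1093K gave no call in either direction against delta, where 0.515% of all genes were higher and 0.49% lower. At an unadjusted p under 0.05 the count was 3 of 37, against 12.4% of all genes. With the replicate number as a block it was 1, Ddit4, against 3.56% of all genes. These comparisons share the delta arrays.

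The median log2 difference of the 37 genes was -0.20 in WT against delta, -0.26 in K165A against delta and -0.01 in H1093K against delta, where the medians over all genes tested were -0.02, -0.01 and -0.01. With the replicate number as a block, the number called was 16 in WT and 17 in K165A, against 22.6% and 21.3% of all genes. By role, the falls in WT were 3 of 5 amino acid enzymes and 4 of 11 tRNA synthetases. They were 1 of 7 serine and folate enzymes, 1 of 9 regulators and stress genes and 0 of 5 transporters. Among all genes, 7.69% fell. The 3 enzymes include Cth, which was tested only because the arrays labelled deleted are high.

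Epithelial markers moved in the same comparisons. The summed signal of 8 such markers was 3825 to 4134 in delta, 1142 to 1237 in WT, 1019 to 1162 in K165A, 2689 to 2902 in H1093K and 4600 to 4644 on the arrays labelled deleted. Of the 6 that were tested, Krt18, Krt19 and Krt7 fell in WT and in K165A, beside 7.69% and 7.74% of all genes. None was called in H1093K, where 0.515% of all genes rose and 0.49% fell. Most of the range between delta and the G9a forms was Krt7, at 2660 and 2557 in delta against 367 and 309.6 in WT. The 11 fibroblast markers, 3 higher (Pdgfra among them) and 3 lower in both WT and K165A, are given above. Epcam never exceeded 35.9. Macrophage markers summed to 524 to 714 over 8 genes and endothelial markers to 306 to 472 over 6, with Tie1 at 1.09 to 10.9. The part of these markers in the results was not tested.

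**Figure D1:**
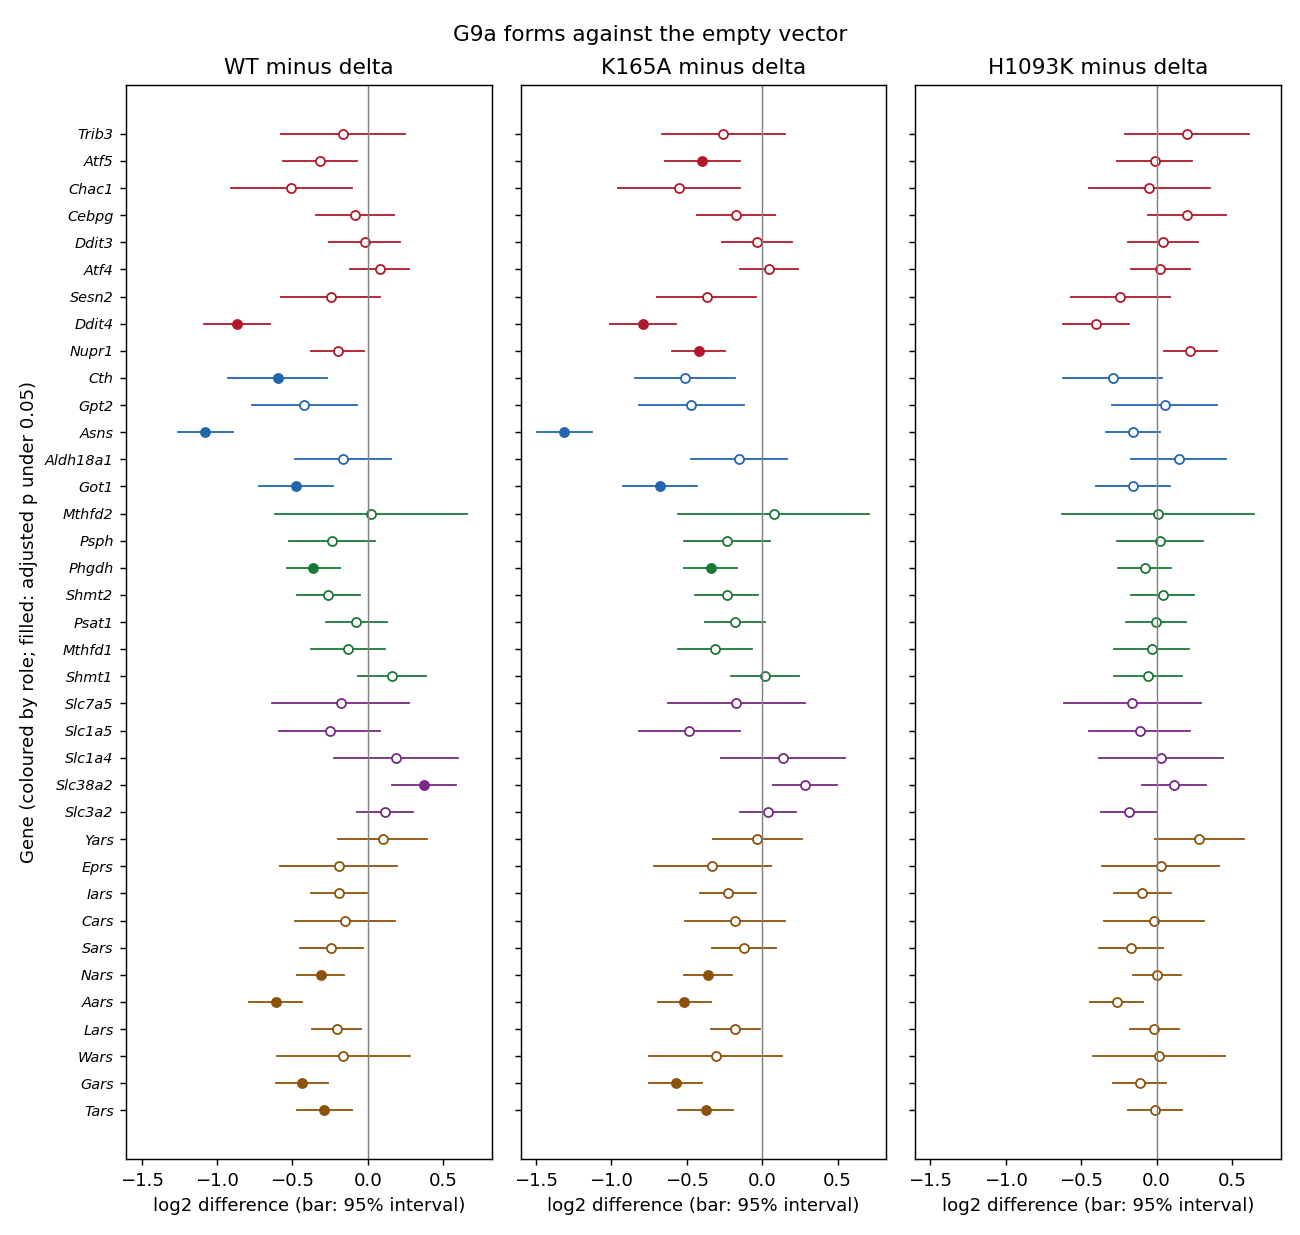
log2 difference from the empty vector of each of the 37 genes tested, in WT, K165A and H1093K; points are estimates, bars 95% intervals from limma, colours the genes' roles, and filled points have an adjusted p under 0.05. Filled points lie left of 0 for 9 genes in WT and 10 in K165A and right of 0 for Slc38a2 in WT, while the H1093K panel has none.

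The promoters of these genes were searched for the composite element that Atf4 and C/EBP proteins are known to bind. The letters TGATGNAAN, read on both strands, were searched in the 250 bases upstream of each start in RefSeq's GRCm38.p6 table. They stood in 9 of the 35 listed genes that had a window there (25.7%), against 1052 of 27025 genes (3.89%) and 1129 of 32851 windows (3.44%) in the table as a whole. The genes were Aars, Asns, Chac1, Gars, Got1, Nupr1, Pycr1, Slc7a11 and Tars. The endoplasmic reticulum stress element, searched in the same way, stood in none of the 35 and in 37 windows of the table (0.113%). The table has no window for Cars, Cth, Lars, Nars, Slc1a5, Slc7a5 and Wars. The matches of the 7 genes that were also tested are shown, since most of them are genes the results below turn on. Each is written 5′ to 3′ along the gene's strand from RefSeq GRCm38.p6, with the match, or its reverse complement, in capitals.
Asns (chr6:7693210-7693257, minus strand): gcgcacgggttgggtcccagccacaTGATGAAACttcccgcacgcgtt
Got1 (chr19:43524675-43524733, minus strand): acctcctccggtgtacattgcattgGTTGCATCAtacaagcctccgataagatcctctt
Chac1 (chr2:119351023-119351081, plus strand): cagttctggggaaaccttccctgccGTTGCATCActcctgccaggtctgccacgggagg
Nupr1 (chr7:126625548-126625606, minus strand): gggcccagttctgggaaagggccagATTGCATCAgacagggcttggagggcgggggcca
Aars (chr8:111033704-111033762, plus strand): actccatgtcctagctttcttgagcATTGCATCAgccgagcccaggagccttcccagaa
Gars (chr6:55037945-55038000, plus strand): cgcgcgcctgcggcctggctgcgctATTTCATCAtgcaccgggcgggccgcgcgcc
Tars (chr15:11399659-11399699, minus strand): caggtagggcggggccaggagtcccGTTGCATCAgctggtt

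Of the 7 tested genes with a match, 6 fell in K165A against delta and 5 in WT against delta. Of the 23 tested genes whose window had none, 3 and 2 fell. Among all genes, 7.74% and 7.69% fell. The medians of the log2 difference were -0.55 with a match and -0.18 without in K165A, and -0.48 and -0.16 in WT. On the arrays labelled deleted the order was the other way, with medians of 0.47 with a match and 1.12 without. There 5 of 7 against 20 of 23 genes were higher than in delta, beside 17.4% of all genes. The 23 include Trib3, whose probe set was tested only because the arrays labelled deleted are high. These counts describe the genes listed and were given no test. A match is a run of letters in the window, not a measured binding site.

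Among the amino acid enzymes, Asns, which makes asparagine from aspartate and glutamine, had the largest fall. Its signal (probe set 1451095_at) was 1085 and 1182 in delta, 517 and 539.9 in WT, 429 and 465 in K165A, 997 and 1033 in H1093K, and 3889 and 3623 on the arrays labelled deleted. Both WT and both K165A arrays lay below every delta and H1093K array, and the H1093K arrays lay just below delta. Asns fell 2.11-fold in WT against delta (log2 -1.08, 95% interval -1.26 to -0.90, adjusted p = 2.45e-05) and 2.48-fold in K165A (log2 -1.31, -1.49 to -1.13, adjusted p = 6.36e-06). In H1093K its log2 difference from delta was -0.16 (-0.34 to 0.02, adjusted p = 0.501). A second Asns probe set (1433966_x_at) gave log2 -1.04 in WT and -1.14 in K165A, with the same calls.

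Got1, the cytosolic aspartate aminotransferase, read 790.2 and 779 in delta, 527 and 594 in WT, 445 and 528 in K165A, 652 and 754 in H1093K, and 1039 and 1092 on the arrays labelled deleted. Its WT and K165A arrays lay below all others. The fall was 1.39-fold in WT (log2 -0.48, adjusted p = 0.0203) and 1.60-fold in K165A (log2 -0.68, adjusted p = 0.00334). Cth, which splits cystathionine to release cysteine, read 103 and 118 in delta, 69.9 and 65.2 in WT, 72.0 and 73.6 in K165A, 90.5 and 84.3 in H1093K, and 814 and 783 on the arrays labelled deleted. Cth was dim on the 8 arrays not labelled deleted, and its delta arrays lay above the other 6 of them. It fell 1.51-fold in WT (log2 -0.60, adjusted p = 0.0275), and in K165A its log2 difference was -0.51 with an adjusted p of 0.0534. The call of Cth in WT held in 10 of 19 alternatives. It was lost with no brightness filter (adjusted p = 0.0702) and without both arrays labelled deleted (0.0698). Leaving out a delta or a WT array also lost it, with log2 differences between -0.68 and -0.51.

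Phgdh, which takes the first step from glycolysis into serine, was the one gene of the serine and folate group that fell with a G9a form. Its signal was 1423 and 1339 in delta, 1056 and 1088 in WT, 1156 and 1022 in K165A, 1298 and 1313 in H1093K, and 4406 and 4588 on the arrays labelled deleted. The WT and K165A arrays lay below the delta and H1093K arrays without overlap. The fall was 1.28-fold in WT (log2 -0.36, adjusted p = 0.0159) and 1.27-fold in K165A (log2 -0.34, adjusted p = 0.0209). Other Phgdh probe sets moved the same way but missed the threshold: 1456584_x_at gave log2 -0.28 in WT (adjusted p = 0.228) and 1437621_x_at gave -0.25 in K165A (adjusted p = 0.135). Mthfd2, the mitochondrial folate enzyme, was read differently by its probe sets. The brighter set spread widely within groups, at 514 and 287 in delta, and gave log2 0.08 in K165A against delta, while 1419254_at fell there (log2 -0.50, adjusted p = 0.0177).

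Among the regulators and stress genes, Ddit4, an inhibitor of the growth kinase mTORC1, fell most. It read 983 and 1111 in delta, 567 and 565 in WT, 567 and 629 in K165A, 736 and 844 in H1093K, and 1168 and 1232 on the arrays labelled deleted. The H1093K arrays lay above every WT and K165A array and below both delta arrays, with no overlap. Ddit4 fell 1.82-fold in WT (log2 -0.87, -1.09 to -0.65, adjusted p = 0.000372) and 1.73-fold in K165A (log2 -0.79, -1.01 to -0.57, adjusted p = 0.00066). In H1093K its log2 difference was -0.40 (adjusted p = 0.11), and with the replicate block it passed.

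Nupr1, a small stress-induced chromatin protein, read 3556 and 3582 in delta, 3294 and 2934 in WT, 2688 and 2640 in K165A, 4022 and 4322 in H1093K, and 1353 and 1351 on the arrays labelled deleted. H1093K was highest and the arrays labelled deleted lowest, with no overlap between any groups. Nupr1 fell 1.34-fold in K165A against delta (log2 -0.42, adjusted p = 0.00756), and in WT its log2 difference was -0.20 (adjusted p = 0.141). Its second probe set, 1419666_x_at, did pass in WT (log2 -0.31, adjusted p = 0.0273). Atf5, a transcription factor of the same response, read 499 and 626 in delta, 442 and 449 in WT, 438 and 404 in K165A, 555 and 552 in H1093K, and 2712 and 3008 on the arrays labelled deleted. WT and K165A lay below delta, and the H1093K arrays lay between the delta arrays. Atf5 fell 1.32-fold in K165A (log2 -0.40, adjusted p = 0.0463). That call held in 7 of 21 alternatives, and in 1 of the 10 that leave out an array, where the adjusted p reached 0.26; it was lost with median centring (0.0612), quantile normalization (0.0574) and no brightness filter (0.0678). In WT its log2 difference was -0.32 (adjusted p = 0.099).

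The messenger of Atf4 itself was not called between any of the 4 groups with a vector. Atf4 read 1913 and 2121 in delta, 2115 and 2143 in WT, 2049 and 2113 in K165A, and 1986 and 2118 in H1093K. Each G9a form overlapped with delta, while both WT arrays lay just above both K165A arrays. The log2 difference from delta was 0.08 in WT (-0.11 to 0.27), 0.05 in K165A (-0.15 to 0.24) and 0.03 in H1093K (-0.17 to 0.22). Atf4 is controlled to a large part at translation, and its protein was not measured here.

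**Figure D2:**
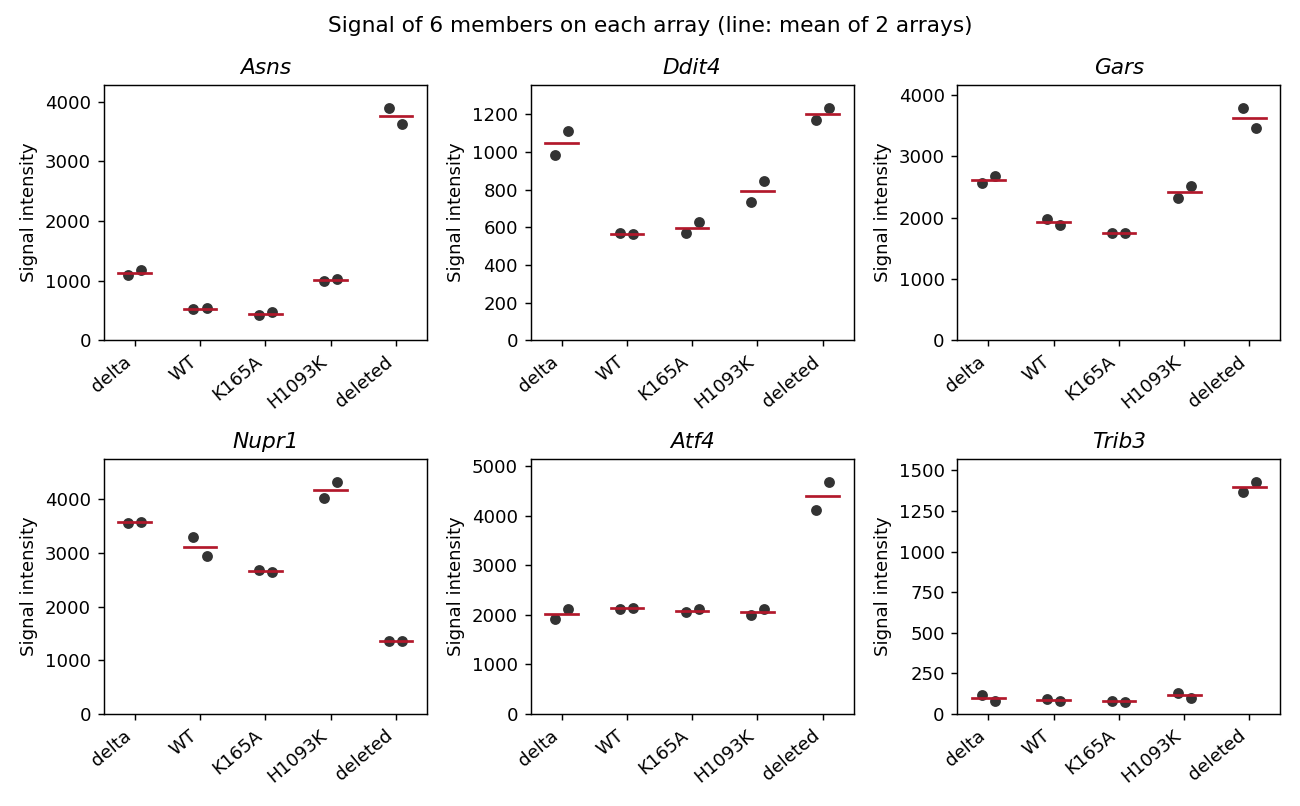
Signal intensity of Asns, Ddit4, Gars, Nupr1, Atf4 and Trib3 on each array, by group; points are single arrays and lines the means of 2 arrays. Asns, Ddit4 and Gars are lower in WT and K165A than in delta and H1093K, Atf4 overlaps between delta and each of these groups and is higher on the arrays labelled deleted, and Nupr1 is lowest there.

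Of the 11 tRNA synthetases tested, which join each amino acid to its tRNA, 4 fell in WT and 4 in K165A against delta: Aars, Gars, Nars and Tars. Aars, for alanine, read 1824 and 2004 in delta, 1196 and 1298 in WT, 1352 and 1311 in K165A, 1533 and 1649 in H1093K, and 3202 and 3161 on the arrays labelled deleted. WT and K165A were lowest and H1093K intermediate, with no overlap with delta. Aars fell 1.53-fold in WT (log2 -0.61, adjusted p = 0.000825) and 1.43-fold in K165A (log2 -0.52, adjusted p = 0.00236). Gars, for glycine, read 2561 and 2679 in delta, 1980 and 1881 in WT, 1751 and 1756 in K165A, 2323 and 2523 in H1093K, and 3789 and 3468 on the arrays labelled deleted. It fell 1.35-fold in WT (log2 -0.44, adjusted p = 0.00557) and 1.49-fold in K165A (log2 -0.57, adjusted p = 0.00118), again with no overlap.

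Nars, for asparagine, read 2197 and 2287 in delta, 1882 and 1724 in WT, 1721 and 1772 in K165A, 2245 and 2246 in H1093K, and 3850 and 3872 on the arrays labelled deleted. The H1093K arrays lay between the delta arrays. Nars fell 1.24-fold in WT (log2 -0.31, adjusted p = 0.019) and 1.28-fold in K165A (log2 -0.36, adjusted p = 0.0102), although 1452866_at, its other probe set, missed the threshold in K165A (log2 -0.22, adjusted p = 0.0892). Tars, for threonine, read 1222 and 1199 in delta, 1009 and 970.1 in WT, 886 and 976 in K165A, 1139 and 1266 in H1093K, and 1350 and 1384 on the arrays labelled deleted. WT and K165A lay below delta, and H1093K spanned it. Tars fell 1.22-fold in WT (log2 -0.29, adjusted p = 0.0461) and 1.30-fold in K165A (log2 -0.38, adjusted p = 0.0151). Its call in WT held in 10 of 21 alternatives. It was lost with median centring (adjusted p = 0.0709), quantile normalization (0.061) and no brightness filter (0.0641). The other 7 synthetases had log2 differences with adjusted p from 0.101 upward in WT, of which Sars had -0.24 and Yars 0.10.

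Slc38a2, a sodium-coupled transporter of small neutral amino acids, was the one gene that rose with wild-type G9a. It read 3068 and 2813 in delta, 3903 and 3713 in WT, 3310 and 3880 in K165A, 3052 and 3314 in H1093K, and 3886 and 3824 on the arrays labelled deleted. Both WT arrays exceeded both delta arrays. Slc38a2 rose 1.29-fold in WT (log2 0.37, adjusted p = 0.0313), and in K165A its log2 difference was 0.29 (adjusted p = 0.0859). The call in WT held in 12 of 21 alternatives. It was lost with no brightness filter (adjusted p = 0.0523) and without both arrays labelled deleted (0.0516).

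Leaving out a delta or a WT array lowered the count in WT against delta, and the share of all genes called fell as well. In WT against delta the number called was 5 without delta array 1, 6 without delta array 2, 5 without WT array 1 and 5 without WT array 2, against 10 with all arrays. The calls of Asns, Ddit4, Aars and Gars held in every alternative run for WT, and those of Asns, Ddit4, Aars, Gars, Got1 and Nupr1 in every one for K165A.

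G9a with the K165A substitution was set against wild-type G9a directly. No listed gene was called in K165A against WT by limma, and none of all 7761 genes was (0%). At an unadjusted p under 0.05 there were 2 of 37, Asns and Nupr1, beside 2.74% of all genes, and with the replicate block there was again none. Log2 differences ran from -0.23 to 0.12. The lowest was that of Asns, with a 95% interval of -0.42 to -0.05 (adjusted p = 0.9999), and Nupr1 had -0.22 (-0.40 to -0.05).

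Cells with the catalytic mutant differed from those with the wild type, also in the signal of Ehmt2. Its brighter probe set was lower in H1093K than in WT (log2 -0.43, limma adjusted p = 0.018), and its dim set was not called (log2 0.23, adjusted p = 0.862). The part of the Ehmt2 level in the differences below was not tested. In H1093K against WT, 6 of the 37 genes were higher (Asns, Ddit4, Nupr1, Aars, Nars and Gars) and none lower, against 4.81% higher and 4.46% lower among all genes. The median log2 difference was 0.22, against 0.01 for all genes. Asns was 1.89-fold higher (log2 0.92, 0.74 to 1.10, adjusted p = 8.31e-05), Ddit4 1.38-fold (adjusted p = 0.0163) and Nupr1 1.34-fold (adjusted p = 0.00872). The synthetases Aars, Gars and Nars were 1.27-fold, 1.25-fold and 1.24-fold higher, with adjusted p of 0.0234, 0.0306 and 0.0227. A second Aars probe set, 1423685_at, missed the threshold (log2 0.44, adjusted p = 0.0563), as did 1452866_at of Nars (log2 0.25, adjusted p = 0.077), while 1419254_at of Mthfd2 passed (log2 0.42, adjusted p = 0.0478). With the replicate block 12 genes were called, of which Slc3a2 was lower, against 15.8% of all genes. Leaving out any WT or H1093K array lowered the count, and the share of all genes called fell as well. Of the 6 calls, that of Asns alone held in every alternative run.

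Between the substitutions, asparagine synthetase and several tRNA synthetases were lower in K165A than in H1093K. Ehmt2 was higher in K165A by its brighter probe set (log2 0.57, limma adjusted p = 0.00393), and its dim set was not called (log2 0.56, adjusted p = 0.612). The part of the Ehmt2 level in these differences was not tested. Of the 37 genes, 7 were lower in K165A (Asns, Nupr1, Got1, Gars, Nars, Tars and Ddit4) and none higher, against 4.56% lower and 3.74% higher among all genes. Asns was 2.23-fold lower (log2 -1.16, -1.34 to -0.98, adjusted p = 2.4e-05) and Nupr1 1.56-fold lower (log2 -0.64, adjusted p = 0.000686). Got1 was 1.43-fold lower (adjusted p = 0.0176) and Gars 1.38-fold lower (adjusted p = 0.00502). Nars, Tars and Ddit4 were lower by 1.28-fold, 1.29-fold and 1.31-fold, with adjusted p of 0.0121, 0.0226 and 0.0387. The call of Ddit4 held in 10 of 21 alternatives. It was lost with no brightness filter (adjusted p = 0.0568), with median centring (0.058) and without both arrays labelled deleted (0.0614). The second Nars set did not pass (log2 -0.11, adjusted p = 0.469), whereas the second sets of Aars (log2 -0.52, adjusted p = 0.0294) and Mthfd2 (log2 -0.59, adjusted p = 0.00966) did. The replicate block gave 15 genes, against 14.9% of all genes. Leaving out any K165A or H1093K array lowered the count, and the share of all genes called fell as well. Asns and Nupr1 were called in every alternative.

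On the arrays labelled deleted, most genes of every role on the list were higher. Against delta, 31 of 37 genes rose and 1, Nupr1, fell, while 17.4% of all genes rose and 19.1% fell. All 5 amino acid enzymes and all 5 transporters tested rose, with 5 of 7 serine and folate enzymes, 9 of 11 tRNA synthetases and 7 of 9 regulators and stress genes. Ddit4, Shmt1, Mthfd1, Wars and Tars were not called. The median log2 difference was 1.09, against -0.01 for all genes tested. These counts include Cth and Trib3, whose probe sets were tested only because the arrays labelled deleted are high. Without both, 29 of 35 genes rose and 1 fell, with a median of 1.08 and 4 of 4 amino acid enzymes and 6 of 8 regulators and stress genes higher. Since the Ehmt2 signal goes against the label of these arrays, the direction is that of the arrays labelled deleted, not of a known G9a state. Marker genes differed on these arrays too, in both directions. Of the 6 epithelial markers tested, Krt8, Krt18 and Dsp were higher and Krt7 and Cdh1 lower than in delta: Krt8 read 1577 and 1630 against 145 and 112, and Krt7 read 83.1 and 113 against 2660 and 2557. Of the 11 fibroblast markers 4 were higher and 3 lower, as given above. Dsp, Pdgfra and Dcn were tested only because the arrays labelled deleted are high. Without them, 2 of 5 epithelial markers were higher and 2 lower, and 2 of 9 fibroblast markers were higher and 3 lower. The part of these markers in the result was not tested.

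**Figure D3:**
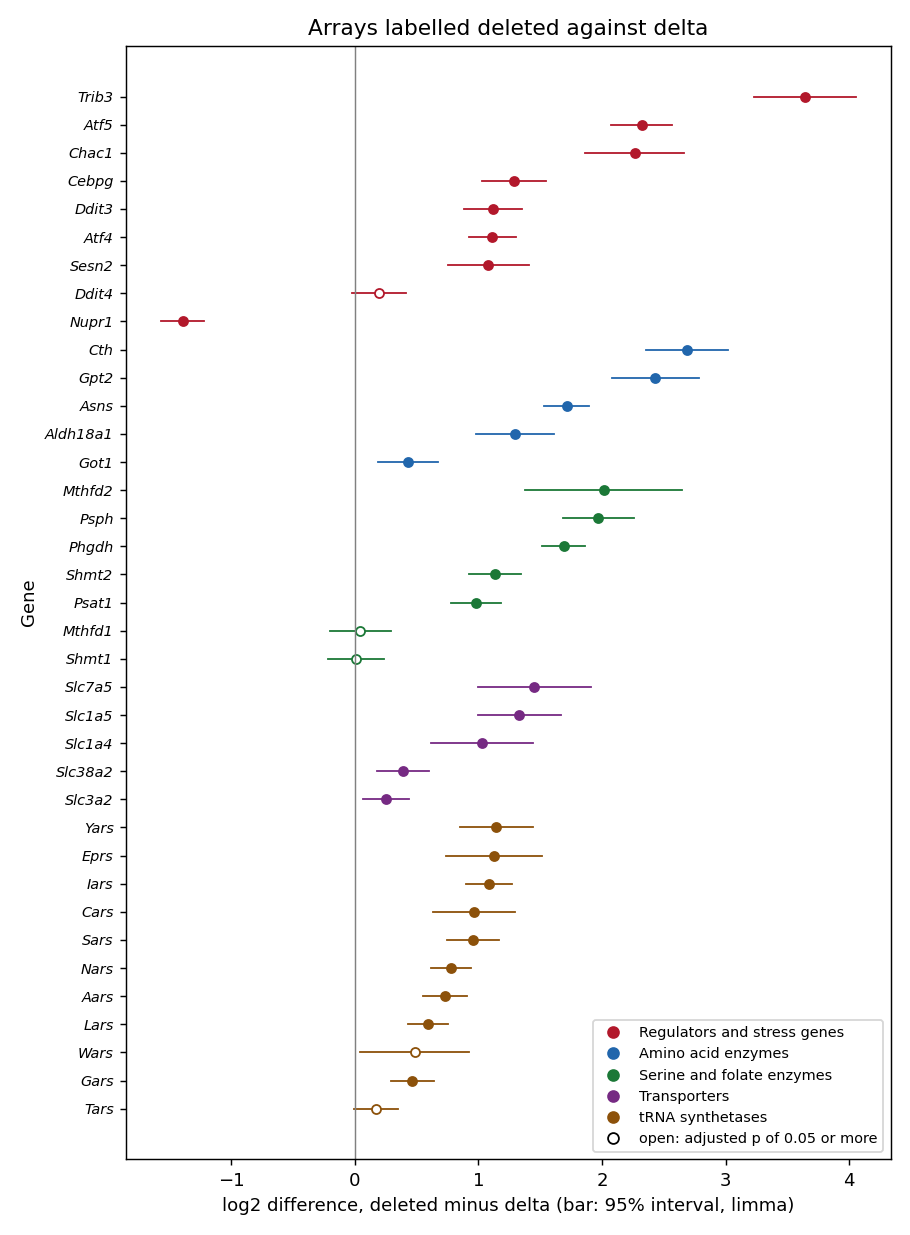
log2 difference of the arrays labelled deleted from delta for each of the 37 genes tested, by role; points are estimates, bars 95% intervals from limma, and open points have an adjusted p of 0.05 or more. Nupr1 is the one filled point below 0, at -1.39, and Slc3a2 the lowest filled point above it, at 0.26; Trib3 and Cth, drawn farthest right, were tested only through the arrays labelled deleted.

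Among the regulators, Trib3, a pseudokinase that feeds back on Atf4, read 115 and 81.6 in delta, 89.3 and 80.9 in WT, 81.3 and 76.0 in K165A, 131 and 99.2 in H1093K, and 1365 and 1429 on the arrays labelled deleted. This set averaged 94.3 over the 8 arrays not labelled deleted, under the brightness filter of 98.9 for those arrays, so its fold is not given. The other Trib3 set, 1456225_x_at, was bright enough on those arrays and rose by log2 2.28 (adjusted p = 1.83e-05), from 143 and 121 in delta to 566 and 859. Chac1, which breaks down glutathione, read 260.3 and 179.6 in delta, 148 and 147 in WT, 148 and 137 in K165A, 239 and 182 in H1093K, and 1133 and 1071 on the arrays labelled deleted. Its rise over delta was 4.81-fold (log2 2.27, adjusted p = 8.8e-06). Atf5, given above, rose by log2 2.32 (2.07 to 2.57, adjusted p = 2.65e-07).

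Atf4 read 4105 and 4679 on the arrays labelled deleted, above every other array, a 2.17-fold rise over delta (log2 1.12, 0.92 to 1.31, adjusted p = 7.75e-06). Ddit3, the transcription factor CHOP, read 382 and 366 in delta, 400.3 and 338 in WT, 353 and 376 in K165A, 376 and 395 in H1093K, and 834 and 826 on the arrays labelled deleted. Each G9a form overlapped with delta, while both K165A arrays lay below both H1093K arrays. The rise over delta was 2.17-fold (adjusted p = 2.76e-05). Cebpg, a C/EBP partner of Atf4, read 324 and 381 in delta, 308 and 355 in WT, 298 and 323 in K165A, 421 and 393 in H1093K, and 877 and 891 on the arrays labelled deleted. It rose 2.45-fold (adjusted p = 1.94e-05). Sesn2, a leucine sensor that restrains mTORC1, read 253 and 202 in delta, 179.5 and 198 in WT, 188 and 157 in K165A, 194 and 185 in H1093K, and 505 and 490.3 on the arrays labelled deleted. Its rise was 2.12-fold (adjusted p = 0.000339).

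Nupr1 and Ddit4 did not go with the other regulators. Nupr1 fell 2.62-fold (log2 -1.39, -1.57 to -1.21, adjusted p = 8.66e-07) and ranked 147 from the lowest of 7761 genes. Ddit4 had a log2 difference of 0.20 (-0.02 to 0.41, adjusted p = 0.155).

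The 4 amino acid enzymes that were bright enough on the other arrays rose by 1.35-fold to 5.40-fold. Cth, which was not (a mean of 84.6 over those 8 arrays), read 103 and 118 in delta against 814 and 783, and its fold is not given. Gpt2, the mitochondrial alanine aminotransferase, read 140.5 and 119 in delta, 92.3 and 92.7 in WT, 78.2 and 101 in K165A, 131 and 139 in H1093K, and 782 and 757 on the arrays labelled deleted. It rose 5.40-fold (log2 2.43, adjusted p = 2.13e-06). Asns rose 3.28-fold (log2 1.71, adjusted p = 2.52e-07). Aldh18a1, which starts proline synthesis from glutamate, read 1209 and 1236 in delta, 939 and 1263 in WT, 975 and 1232 in K165A, 1311 and 1398 in H1093K, and 2906 and 3160 on the arrays labelled deleted. Its rise was 2.46-fold (adjusted p = 8.08e-05), and the rise of Got1, the smallest of the 4, was 1.35-fold (adjusted p = 0.0125).

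In the serine pathway all 3 enzymes rose. Phgdh rose 3.23-fold (log2 1.69, adjusted p = 2.35e-07). Psat1, the aminotransferase of the second step, read 1703 and 1816 in delta, 1584 and 1758 in WT, 1537 and 1562 in K165A, 1631 and 1887 in H1093K, and 3396 and 3597 on the arrays labelled deleted. It rose 1.98-fold (adjusted p = 2.3e-05), and both K165A arrays lay below those of every other group. Psph, the phosphatase of the last step, read 361 and 440.2 in delta, 310.4 and 362 in WT, 336 and 338 in K165A, 374 and 437 in H1093K, and 1532 and 1691 on the arrays labelled deleted. The rise was 3.92-fold (log2 1.97, adjusted p = 2.26e-06).

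The folate enzymes divided by compartment. The mitochondrial enzymes Shmt2 and Mthfd2 rose, and the cytosolic enzymes Shmt1 and Mthfd1 were not called. Shmt2, which converts serine to glycine in mitochondria, read 1410 and 1310 in delta, 1198 and 1067 in WT, 1216 and 1091 in K165A, 1452 and 1346 in H1093K, and 3160 and 2858 on the arrays labelled deleted, a 2.20-fold rise over delta (adjusted p = 1.12e-05). A dim Shmt2 set, 1455985_x_at, did not pass (log2 0.23, adjusted p = 0.803). Mthfd2 read 514 and 287 in delta, 401 and 381 in WT, 511 and 322 in K165A, 484 and 311 in H1093K, and 1589 and 1618 on the arrays labelled deleted. Its rise was 4.04-fold (log2 2.01, 1.38 to 2.65, adjusted p = 0.000453).

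Shmt1, the cytosolic counterpart of Shmt2, read 361 and 392 in delta and 376 and 382 on the arrays labelled deleted. Its log2 difference was 0.01 (-0.22 to 0.23), and the arrays overlapped. Mthfd1, the cytosolic folate enzyme, read 829.7 and 652 in delta and 766 and 754 on the arrays labelled deleted, with a log2 difference of 0.05 (-0.20 to 0.29). The difference between mitochondrial and cytosolic enzymes was itself not tested.

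The transporters rose by 1.19-fold to 2.74-fold. Slc7a5, the large neutral amino acid exchanger, read 546 and 731 in delta, 473 and 652 in WT, 489 and 639.9 in K165A, 520.5 and 611 in H1093K, and 1540 and 2008 on the arrays labelled deleted. It rose 2.74-fold (adjusted p = 0.000429), and its other 4 groups overlapped. Slc3a2, the heavy chain that holds Slc7a5 and Slc7a11 at the membrane, read 2776 and 2915 in delta, 3277 and 2904 in WT, 3000 and 2845 in K165A, 2459 and 2554 in H1093K, and 3512 and 3286 on the arrays labelled deleted. Its rise was the smallest, 1.19-fold (log2 0.26, 0.07 to 0.44, adjusted p = 0.0392), and with median centring of each array the adjusted p was 0.168.

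Slc1a5, a glutamine exchanger, read 337 and 263 in delta, 271 and 226 in WT, 217 and 200.3 in K165A, 251 and 301 in H1093K, and 764 and 787 on the arrays labelled deleted. It rose 2.52-fold (adjusted p = 9.92e-05). Slc1a4, its relative for alanine and serine, read 162 and 147 in delta, 149.9 and 210.1 in WT, 149.7 and 197 in K165A, 163 and 153 in H1093K, and 318 and 345 on the arrays labelled deleted. The rise of Slc1a4 was 2.04-fold (adjusted p = 0.00193), but its second set, 1423550_at, did not pass (log2 0.56, adjusted p = 0.108). Slc38a2 rose 1.31-fold (adjusted p = 0.0101).

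All 11 tRNA synthetases had both arrays labelled deleted above both delta arrays, an order that 33.8% of all genes showed. Yars, for tyrosine, rose most, from 384 and 479 in delta to 935 and 1002, or 2.21-fold (adjusted p = 0.000112), with 479.7 and 442 in WT, 389 and 452 in K165A, and 485 and 569.8 in H1093K. Eprs, the joint enzyme for glutamate and proline, read 903 and 1030 in delta, 752 and 944 in WT, 634 and 915 in K165A, 929 and 1039 in H1093K, and 1935 and 2329 on the arrays labelled deleted. Eprs rose 2.18-fold (adjusted p = 0.000796). Iars, for isoleucine, read 1068 and 1159 in delta, 957 and 986 in WT, 894 and 1006 in K165A, 1007 and 1078 in H1093K, and 2335 and 2441 on the arrays labelled deleted. The rise of Iars was 2.13-fold (adjusted p = 6.9e-06).

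Cars, for cysteine, read 405 and 530.1 in delta, 462 and 375 in WT, 378 and 439 in K165A, 436 and 482 in H1093K, and 884 and 964 on the arrays labelled deleted, a 1.96-fold rise (adjusted p = 0.000758). Sars, for serine, read 1983 and 1906 in delta, 1746 and 1544 in WT, 1924 and 1658 in K165A, 1797 and 1660 in H1093K, and 3859 and 3718 on the arrays labelled deleted, a 1.94-fold rise (adjusted p = 3.84e-05). Nars and Aars, which had fallen with WT and K165A, rose here by 1.72-fold and 1.66-fold (adjusted p = 2.22e-05 and 7.36e-05). Lars, for leucine, read 1129 and 1178 in delta, 966 and 1030 in WT, 1056 and 979.7 in K165A, 1132 and 1150 in H1093K, and 1744 and 1761 on the arrays labelled deleted. Its rise was 1.51-fold (adjusted p = 0.000167) and that of Gars 1.38-fold (adjusted p = 0.00128).

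Wars, for tryptophan, read 709.8 and 520.3 in delta, 636 and 461 in WT, 488 and 488 in K165A, 719.7 and 525 in H1093K, and 926 and 795 on the arrays labelled deleted. Its brightest set was not called (log2 0.49, adjusted p = 0.0834), while 1415694_at was (log2 0.55, adjusted p = 0.00258). Tars had a log2 difference of 0.17 (-0.01 to 0.35, adjusted p = 0.128).

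**Figure D4:**
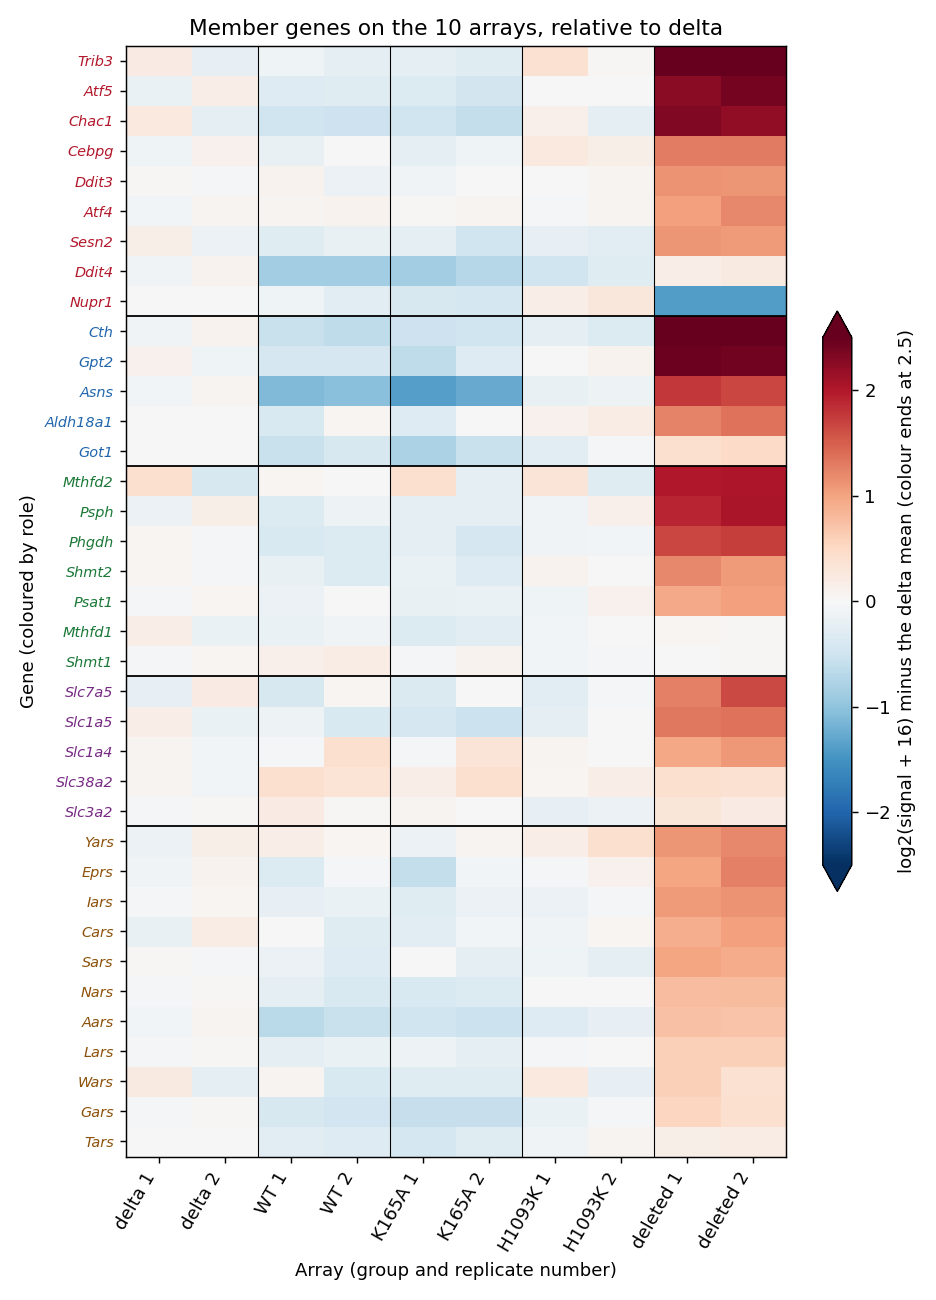
log2 signal of each of the 37 genes tested on each of the 10 arrays, centred on the gene's mean over the delta arrays and ordered by role. The 2 columns of the arrays labelled deleted are red for most genes and blue for Nupr1, and in the WT and K165A columns Asns and Ddit4 have the deepest blue.

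Against WT the arrays labelled deleted gave 32 genes higher and 1, Nupr1, lower of 37, beside 18% higher and 17.7% lower among all genes. Without Cth and Trib3 it was 30 higher and 1 lower of 35, with a median log2 difference of 1.14. All 11 tRNA synthetases were higher, by 1.38-fold (Tars, adjusted p = 0.00181) to 2.53-fold (Aars, adjusted p = 1.33e-06), and Wars passed by its brightest set (1.57-fold, adjusted p = 0.0297). The Wars call was not shared by 1425106_a_at (log2 0.38, adjusted p = 0.107) and 1437832_x_at (log2 0.36, adjusted p = 0.145), and it was lost without WT array 2 (adjusted p = 0.2), deleted array 1 (0.151) or deleted array 2 (0.0551). Slc1a4 passed by its brightest set (1423549_at, log2 0.84) but not by 1423550_at (log2 0.40, adjusted p = 0.249) or 1456003_a_at (log2 0.48, adjusted p = 0.0801). Shmt2 likewise passed by its brightest set (2.63-fold) but not by the dim sets 1434204_x_at (log2 1.07, adjusted p = 0.061) and 1455985_x_at (log2 0.27, adjusted p = 0.758). Asns was 6.92-fold higher (log2 2.79, 2.61 to 2.97, adjusted p = 3.9e-08). Ddit4 was called here, 2.09-fold higher (adjusted p = 2.82e-05). Slc3a2 (log2 0.14), Slc38a2 (log2 0.02), Shmt1 (log2 -0.15) and Mthfd1 (log2 0.18) were not. This comparison shares its deleted arrays with the one against delta.

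Other genes of the same pathways were read from lists that did not overlap with the 43. These lists were also chosen with earlier results of these data known, so their counts are not an independent check. Of 16 further Atf4-linked targets tested, 12 were higher and none lower on the arrays labelled deleted than in delta, beside 17.4% and 19.1% of all genes. Of these, Vldlr, Slc7a3 and Bcat1 were tested only because the arrays labelled deleted are high, and without them 9 of 13 were higher. Vldlr, a lipoprotein receptor, read 67.3 and 53.6 in delta against 900.4 and 776, and Slc7a3, an arginine transporter, 103 and 74.97 against 1024 and 948. The 9 included Ero1a, an oxidase of protein folding, at 3.30-fold (adjusted p = 1.19e-06) and Slc6a9, a glycine transporter, at 3.23-fold (adjusted p = 2.53e-06). Other transporters gave 5 higher and 2 lower of 13 (4 and 2 of 12 without Slc7a3), and other amino acid enzymes 5 higher and 2 lower of 16 (4 and 2 of 15 without Bcat1). The shares lower lay at or below the 19.1% of all genes. Bcat1, which transaminates branched-chain amino acids, read 77.0 and 174 in delta against 962 and 1098. Among the other enzymes Glul, glutamine synthetase, rose 2.02-fold (adjusted p = 0.00175), and Cdo1, which oxidises cysteine, fell 2.72-fold (adjusted p = 3.42e-07). Bcat1, Slc6a9 and Slc7a3 stand on more than 1 of these lists.

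The remaining tRNA synthetase genes were called about as often as all genes, of which 17.4% rose and 19.1% fell. Of 9 other cytosolic synthetase genes, Farsb and Aimp1 were higher (1.37-fold and 1.45-fold) and Aimp2, a scaffold of the synthetase complex, was lower (1.48-fold). Of 7 mitochondrial synthetases, Iars2 was higher and Rars2 lower. A list of 11 glutathione and other antioxidant genes went the other way, in that 1 rose and 6 fell. Of the 6, Txnrd1 and Hmox1 are outside glutathione synthesis and use. Gss, glutathione synthetase, fell 2.06-fold (adjusted p = 4.17e-05) and Gpx1, a peroxidase that uses glutathione, fell 1.68-fold (adjusted p = 0.000423). Of 7 purine and thymidylate genes, Adss alone was called, and it fell 1.23-fold. Among 8 genes of eIF2 control, 3 rose, with Ppp1r15a, which directs a phosphatase to eIF2, up 1.78-fold (adjusted p = 2.90e-05), and Eif2ak3, the kinase PERK, fell 1.45-fold (adjusted p = 0.001).

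**Figure D5:**
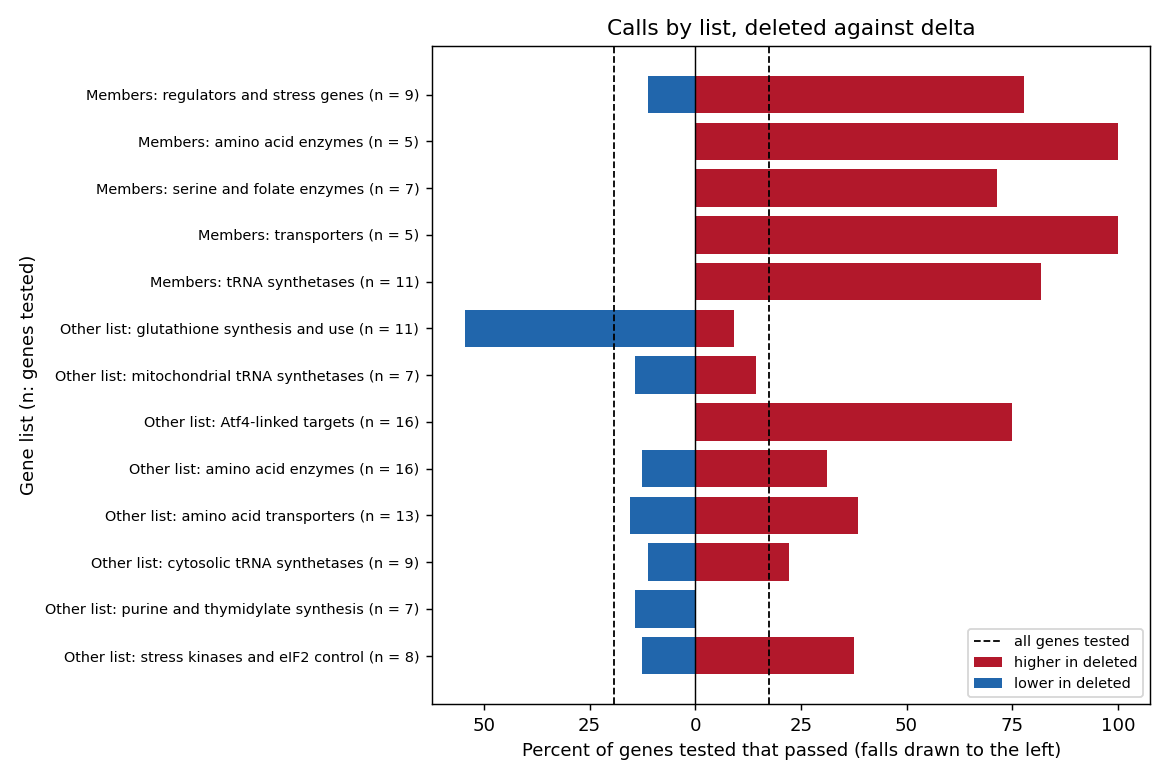
Share of the tested genes of each list that were higher or lower on the arrays labelled deleted than in delta, with the share over all genes tested for reference (17.4% higher, 19.1% lower). The 5 role groups of the 37 genes and the 16 further Atf4-linked targets have the largest shares higher. The 11 glutathione and other antioxidant genes, drawn as glutathione synthesis and use, have the largest share lower.

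The same lists were read in WT and K165A against delta, where 7.69% and 7.74% of all genes fell and 5.85% and 5.32% rose. Of the 16 further Atf4-linked targets, 1 rose and 4 fell in WT and none rose and 3 fell in K165A. Of the 11 glutathione and other antioxidant genes none rose, and 4 fell in WT (Gss, Gpx3, Hmox1 and Srxn1) and 4 in K165A (Gss, Gpx3, Txnrd1 and Hmox1). Among these, Hmox1, Srxn1 and Txnrd1 are outside glutathione synthesis and use. Other amino acid enzymes gave 2 higher and 2 lower of 16 in WT and 1 and 2 in K165A, other transporters 2 lower of 13 in each, and genes of eIF2 control 1 higher and 1 lower of 8 in WT and 1 lower in K165A. Eif4ebp1, an inhibitor of cap-dependent translation, fell 1.46-fold in WT (adjusted p = 0.0102) and 1.47-fold in K165A (adjusted p = 0.00925), and Lonp1, a mitochondrial protease, fell 1.29-fold and 1.36-fold. Atf3 rose 1.55-fold in WT (adjusted p = 0.00513). Gpx3, a secreted glutathione peroxidase, fell 5.01-fold in WT (adjusted p = 0.000608) and 4.94-fold in K165A (adjusted p = 0.000634), and was 6.31-fold higher in H1093K than in WT (adjusted p = 0.000276). Cdo1 rose 2.45-fold in WT (adjusted p = 4.12e-06) and 2.40-fold in K165A (adjusted p = 3.82e-06). None of the 9 other cytosolic and 7 mitochondrial synthetase genes was called by limma in either comparison. At an unadjusted p under 0.05 it was 2 and 0 in WT, against 28.2% of all genes, and 1 and 1 in K165A, against 26.7%.

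A single limma test over groups asked whether a gene differed anywhere. Over all 5 groups, 34 of the 37 genes passed (91.9%), against 40% of all genes. The 37 include Cth and Trib3, whose probe sets were tested only because the arrays labelled deleted are high. Without the arrays labelled deleted, over 4 groups, 9 passed (24.3%), against 10.6% of all genes.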

How the data were processed

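The deposited values are linear signal intensities of 22690 probe sets on 10 one-colour Affymetrix arrays, which the authors made with GCOS 1.4, per the submitters' processing notes. Per the labels' protocols, total RNA was purified with Trizol and RNeasy columns and labelled with biotin by a single round of the standard Affymetrix procedure. The scaling options and the array's genome build are not given in the sources used here. The trimmed mean was nearly equal on all arrays, so no further scaling was applied. The 64 controls were left out. Of the other 22626 probe sets, the platform annotation named 20380 by 1 gene, with symbols updated through the GRCm38.p6 gene table, 691 by several genes and 1555 by none; only the first were named.

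Signals were taken as log2(signal + 16), and probe sets with a mean over the arrays under the 40th percentile (a signal of 104) were left out, which kept 13576. In R 4.3.3, limma 3.58.1 estimated 1 mean per group from all arrays (lmFit, then eBayes with trend), with 5 residual and 4.69 prior degrees of freedom. The 8 comparisons were each adjusted by Benjamini-Hochberg over all probe sets, with a threshold of 0.05. The code was tested on simulated data. Folds come from log2(signal + 16), which understates those of dim genes. A gene was read by its single-gene probe set of highest mean, and other sets of the listed genes are given where they differed in sign or call. Genes called in at least 1 comparison are given on every array, as is Atf4, and other lists by counts and up to 4 genes of smallest p. The members and lists were chosen with earlier results of these data known. With 2 arrays a group, their number limits the precision.

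The titles give each group an array 1 and an array 2, and the design text speaks of independent analyses. The differences of array 2 from array 1 correlated between all pairs of groups, at 0.229 to 0.509 over probe sets. The numbers were therefore taken to pair the arrays in an alternative fit with a replicate block. The main fit, from which the calls and p-values come unless the block is named, has no block and ignores the pairing. Values with the replicate block are given where they moved a count by over 1.5 times. Alternatives were other pseudocounts, filters and scalings, the mean of a gene's probe sets, fits of fewer arrays, the block, and leaving out each array. Brightness judged on 8 arrays was added after seeing the data.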

Additional observations from a re-analysis of the deposited data

How the results depend on the processing

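No gene's difference that was called changed sign under any alternative run. Leaving out an array of a compared group lowered the share of all genes called, save in K165A against WT, where it did not change. Leaving out 1 array at a time, the number of the 37 genes called was 5 to 10 in WT against delta (10 with all arrays), 7 to 9 in K165A against delta (10), 1 to 7 in H1093K against WT (6), 2 to 8 in K165A against H1093K (7), 29 to 32 on the arrays labelled deleted against delta (32) and 32 to 33 against WT (33). It stayed 0 in H1093K against delta and in K165A against WT. With the replicate number as a block, that is with the arrays paired, the counts were 16, 17, 12 and 15 in the first 4 of these, and 1 in H1093K against delta. The block moved no other count by over 1.5 times. Fitting only the arrays compared gave 6 in WT against delta, 6 in K165A against delta, 2 in H1093K against WT and 3 in K165A against H1093K, where fewer arrays set the spread. The shares of all genes called in these fits were 9.26%, 6.66%, 7.98% and 5.5%, in the same order. Pseudocounts of 1 and 64, filters, scalings and probe set means kept every count within 1.5 times. Median centring shifted the median of all genes by at most 0.07 (log2), on the arrays labelled deleted. Against delta there, 29 of 32 calls held under every alternative, all but Got1, Slc38a2 and Slc3a2, and against WT 31 of 33, all but Slc1a4 and Wars. Dim probe sets limit what can be read for Slc7a11, Slc7a1 and Cbs. The cause of these changes was not tested.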
